A study of Danio rerio with 20 samples.

Results

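The genes described here are 8 zebrafish basic helix-loop-helix transcription factor genes, 4 of the Hairy-related her family (her1, her7, her3 and her5) and all 4 mesp genes of the table (mespaa, mespab, mespba and mespbb). They are 8 of 32105 named entries. They were taken by name with measured values in view: her5 was high at 4 hours post fertilization (hpf), and mespab and her1 were low in the knockdown. Those values are therefore given as a description, with no test. RNA levels came from total RNA sequencing of whole embryos of the wild-type AB strain, in 20 libraries from 3 experimental sets. Every embryo had been injected at the 1-cell stage with a morpholino, an antisense oligomer: a control one (ConMO), a translation-blocking one against the terminal uridylyltransferase TUT4 (TUT4MO) or TUT7 (TUT7MO), or those against TUT4 and TUT7 together (TUT47MO). Set rs1a held 1 library of each morpholino at 2, 4 and 6 hpf, set rs1b ConMO and TUT47MO at 3 and 6 hpf, and set rs2 ConMO and TUT47MO at 3 and 5 hpf. The series asks how TUT4 and TUT7 act in the clearance of maternal mRNA, the store laid down in the egg, while the embryo's own genes switch on.

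The libraries at 2 and 3 hpf are called early and those at 5 and 6 hpf late, so ConMO and TUT47MO each had 3 early and 3 late libraries, matched in pairs by set and hour. A translation-blocking morpholino need not change the level of its target mRNA, so these libraries hold no check of the knockdown, and how many embryos or clutches went into a library is not stated in the labels. P-values thus refer to the spread among these libraries. The series text has the 3 sets as independent, and each phase mixes hours, but how much of the spread is technical is not known. Levels are read counts scaled to library size (CPM) with TMM factors over all 20 libraries, and changes are differences of log2(CPM + 1), which understate the change of low genes. Transcript length was not used, so levels are compared between libraries and not between genes. Depth ran from 11914213 to 32786368 reads per library. A pair of mitochondrial rRNA entries took 44.6 to 51.6% of the reads in 6 libraries of rs1a (the 4 of 6 hpf, plus TUT7MO and TUT47MO of 4 hpf) and 1.17 to 14.4% elsewhere. TMM scaling therefore matters most in rs1a: her1 in ConMO at 6 hpf was 61.0 CPM with it and 31.5 CPM without it. In whole embryos, fewer cells of a type and less RNA per cell cannot be told apart.

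Hairy-related proteins are repressors that work downstream of Notch or independently of it and recruit Groucho co-repressors. In zebrafish, her1 and her7 form the core of the segmentation clock: their proteins repress their own genes in the presomitic mesoderm, the tissue that is cut into somites. Mesp proteins are activators that act where the next segment boundary forms and mark the front part of each segment, and mesp genes are also switched on at the margin of the early gastrula. The gene her5 is known from endoderm precursors and from the boundary of midbrain and hindbrain, and her3 as a repressor of neurogenesis in the neural plate. In the RefSeq annotation of the assembly GRCz12tu, her1 and her7 are neighbours on chromosome 5, mespab and mespbb are neighbours on chromosome 25, and mespaa and mespba lie on chromosome 7 with 1 non-coding gene between them. On chromosome 14 her5 lies next to her11, and her3 is on chromosome 8.

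In control embryos the clock genes her1 and her7 were near 0 through 4 hpf and abundant by 5 hpf. In ConMO, her1 stood at 0.0925 CPM at 2 hpf (rs1a), 0 CPM (rs1b) and 0.651 CPM (rs2) at 3 hpf, 0.564 CPM at 4 hpf, 26.4 CPM at 5 hpf, and 61.0 CPM (rs1a) and 34.6 CPM (rs1b) at 6 hpf. All 3 late libraries lay far above all 3 early ones. Its neighbour her7 stood at 0.692, 0.433 and 1.88 CPM in the early ConMO libraries of rs1a, rs1b and rs2, at 1.07 CPM at 4 hpf, and at 69.6, 51.3 and 52.5 CPM in the late ones. The late her7 libraries lay closer together than those of her1. Between early and late ConMO, her7 rose by 4.93 ± 0.26 (log2 change, SE), with 3 libraries in each group. No p is given for it, since its TMM-scaled CPM reached the level of the filter on low values in 2 early libraries. The filter asks for 3 libraries and used library sizes without TMM factors, and by those her7 reached its level in all 3. The log2 change of her1 was 5.01 ± 0.33 (SE), given as a value without a p, since her1 passed the filter on low values only through the late libraries. Summed over the 3 libraries of each phase, ConMO held 30 early and 2000 late reads of her1 and 107 early and 2901 late reads of her7.

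The other Hairy-related members were on earlier. In ConMO her3 held 0 reads at 2 hpf and 0.0394 and 0.0929 CPM at 3 hpf, then 6.66 CPM at 4 hpf and 7.50 CPM at 5 hpf, and its 6 hpf levels were 10.3 CPM in rs1a and 10 CPM in rs1b. All her3 levels from 4 hpf on lay within 1 narrow band, far above the early ones. In ConMO her5 stood at 0.139 CPM at 2 hpf, 1.62 and 1.88 CPM at 3 hpf, 84.4 CPM at 4 hpf and 37.8 CPM at 5 hpf. Its 6 hpf control levels were 19.1 CPM in rs1a and 12 CPM in rs1b. Its highest control level was thus the one at 4 hpf, by which it was chosen, and the later control levels were lower with each hour. The 5 hpf library was the only late one of rs2, so its level mixes hour and set. From early to late ConMO her5 rose by 3.40 ± 0.35 (log2, SE), in 3 against 3 libraries. It is given without a p, since her5 too needed late libraries to pass the filter. The log2 change of her3, which passed the filter only through the late libraries, was 3.29 ± 0.21 (SE).

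Of the mesp genes, the a-type pair was low through 4 hpf and far higher at 6 hpf in control embryos, and the b-type pair stayed low. mespab held 0.0925 CPM at 2 hpf, 0 CPM in both 3 hpf libraries and 0.0562 CPM at 4 hpf, then 16.6 CPM at 5 hpf, and at 6 hpf 61.9 CPM (rs1a) and 77.1 CPM (rs1b). mespaa stood at 1.06, 0.749 and 0.627 CPM in the early libraries of rs1a, rs1b and rs2 and at 0.621 CPM at 4 hpf, then at 3.31 CPM at 5 hpf, and at 6 hpf 25.1 CPM (rs1a) and 30.6 CPM (rs1b). For mespaa and mespab the 5 hpf library lay between the early and the 6 hpf ones. mespaa rose by 3.08 ± 0.49 (log2, SE; limma adjusted p = 0.000818). The log2 change of mespab, which passed the filter only through the late libraries, was 5.42 ± 0.40 (SE). Summed over 3 libraries, mespab had 2 early and 2283 late reads, a ratio of CPM of 2060 (95% interval 568 to 17000, counting error only).

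Both b-type genes were low throughout. mespbb had 0 reads in all 3 early ConMO libraries, 0.226 CPM at 4 hpf, and 1.24, 2.01 and 2.99 CPM in the late libraries of rs2, rs1a and rs1b. Its ratio of late to early CPM was 57 when the early group was set to a floor of 3 reads over the group. From the 0 early reads, the lower 95% limit of that ratio was 45.5 (counting error only). Its log2 change was 1.58 ± 0.20 (SE), again for a gene that passed the filter only through the late libraries. mespba was present from the start, with 1.94, 1.81 and 1.49 CPM early, 0.959 CPM at 4 hpf and 1.18, 1.85 and 0.276 CPM late in rs1a, rs1b and rs2. Its early and late ConMO libraries overlapped, and its log2 change was −0.46 ± 0.23 (SE; limma adjusted p = 0.106). Summed over 3 libraries, its ratio of late to early CPM was 0.557 (95% interval 0.393 to 0.777, counting error only). mespba and its chromosomal neighbour mespaa thus had opposite signs of change in control embryos, as measured values and with no test of the difference.

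All 8 genes passed the filter on low values, which asks for about 0.46 CPM in 3 of the 6 ConMO libraries. her3, mespab and mespbb reached that level in 0 early libraries and her1 in 1, so these 4 passed only through the late group and had to differ. her7 and her5 reached it in 2 early libraries, short of the 3 asked for, and mespaa and mespba in 3. These counts use TMM-scaled CPM, while the filter itself used library sizes without TMM factors. By those sizes her7 reached the level in all 3 early libraries and did not need late ones. Of the genes that reached it in 3 early libraries on TMM-scaled CPM, mespaa was called higher in late than in early ConMO and mespba was not. Over all 8 the fit called 7, all but mespba, where 36.3% of the 17022 genes tested were called higher and 37.2% lower. Nothing is read from that count, since 4 of the 7 had to differ and her5 also needed late libraries to pass. With the 4 hpf library counted as late, the 7 kept their sign, and her7 (log2 change 3.96), her5 (3.89) and mespaa (2.34) were among the 6 that lost the call, in a fit that called 80 genes in all.

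**Figure D1:**
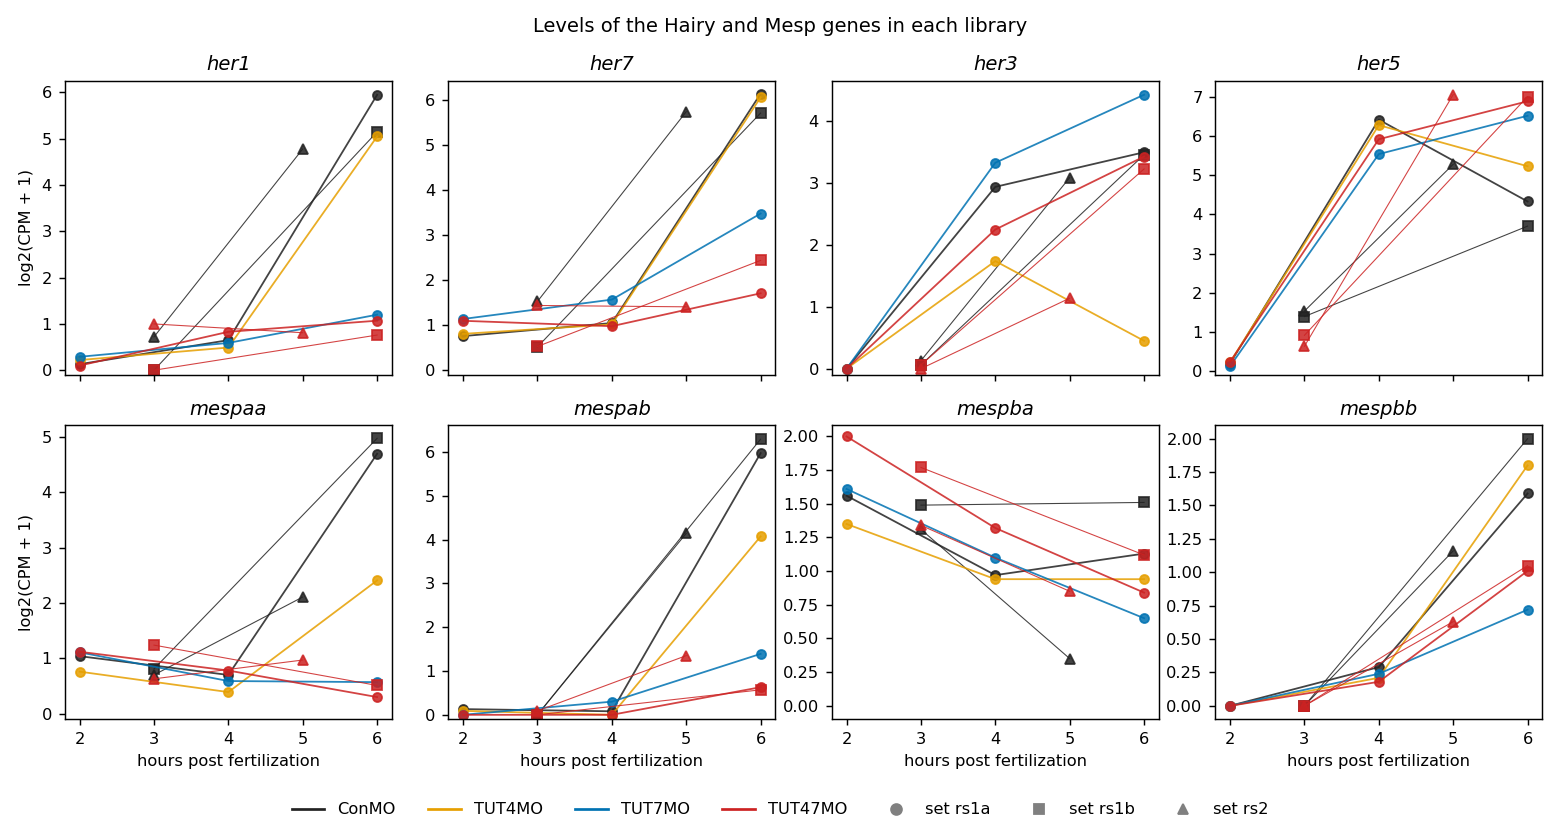
Level of each gene in all 20 libraries as log2(CPM + 1), against hours post fertilization; colours are morpholinos, marker shapes are sets, and lines join the libraries of 1 set and morpholino. The control lines (black) of her1, her7, mespaa and mespab leave the baseline after 4 hpf, while the TUT47MO lines (red) stay near it, and her5 is the gene whose late TUT47MO points lie above the control ones.

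At 2 and 3 hpf, none of the 8 genes was called different between TUT47MO and control embryos. In the early pairs the mean log2 difference between TUT47MO and ConMO ran from −0.44 ± 0.29 (SE) for her5 to 0.25 ± 0.20 for mespba, and 0 of the 8 genes were called by limma, edgeR or DESeq2 (limma adjusted p = 1 for each, 3 pairs). mespba was higher in TUT47MO in 3 of 3 early pairs, with 3.01, 2.40 and 1.52 CPM against 1.94, 1.81 and 1.49 CPM in rs1a, rs1b and rs2. her5 was lower in 2 of 3 early pairs, with 0.880 against 1.62 CPM and 0.549 against 1.88 CPM at 3 hpf in rs1b and rs2. Its ratios of TUT47MO to ConMO were 0.544 (95% interval 0.309 to 0.936, counting error only) in rs1b and 0.291 (0.165 to 0.490) in rs2. At 2 hpf in rs1a the ratio was 1.25 (0.243 to 8.04). None of these differences passed the test, and none of the 8 genes had an unadjusted limma p under 0.05 in this fit. Over all 18075 genes the same fit called 0.0%, with 104 at an unadjusted p under 0.05, and edgeR and DESeq2 called 0 each. The limma fit took its spread from the early and late pairs jointly, so its p-values do not measure the early spread alone. With the early libraries fitted alone, 1036 of 15842 genes had an unadjusted limma p under 0.05. That fit called 1 gene, and 0 of the 8 members. mespbb held 0 reads in all early libraries of TUT47MO too, so nothing can be compared there. At these levels, often under 1 CPM, small differences were not detectable.

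In the late pairs the clock genes and the a-type mesp genes were far lower in TUT47MO embryos than in controls. her1 stood at 1.10, 0.696 and 0.753 CPM in TUT47MO against 61.0, 34.6 and 26.4 CPM in ConMO in rs1a, rs1b and rs2. her7 stood at 2.27, 4.44 and 1.66 CPM against 69.6, 51.3 and 52.5 CPM. For these clock genes the ranges of TUT47MO and ConMO were far apart. The ratio of ConMO to TUT47MO for her1 was 55.6 in rs1a (95% interval 33.0 to 102, counting error only), 49.7 in rs1b (28.7 to 94.2) and 35.1 in rs2 (21.1 to 63.1). For her7 it was 30.6 in rs1a (21.2 to 45.9), 11.5 in rs1b (9.15 to 14.7) and 31.7 in rs2 (22.4 to 46.3). The mean log2 difference over the 3 pairs was −4.41 ± 0.46 (SD, n = 3) for her1 and −4.01 ± 0.65 (SD, n = 3) for her7. Within TUT47MO, late CPM was 2.03 times early CPM for her1 (95% interval 1.26 to 3.27, counting error only) and 2.45 times for her7 (1.89 to 3.19), from summed reads, where ConMO had ratios of 120 (83.8 to 178) and 48.8 (40.3 to 59.8).

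mespab stood at 0.549, 0.482 and 1.56 CPM in late TUT47MO libraries of rs1a, rs1b and rs2, against 61.9, 77.1 and 16.6 CPM in ConMO. mespaa stood at 0.235, 0.428 and 0.954 CPM against 25.1, 30.6 and 3.31 CPM. In these a-type genes the 5 hpf pair of rs2 differed least, and hour and set cannot be told apart in it. Its ratio of ConMO to TUT47MO was 10.7 (95% interval 7.39 to 15.9, counting error only) for mespab and 3.47 (2.07 to 6.10) for mespaa. At 6 hpf the mespab ratios were 113 (54.5 to 281) in rs1a and 160 (83.8 to 351) in rs1b. The mean log2 differences were −4.62 ± 1.60 (SD, n = 3) for mespab and −3.34 ± 1.90 for mespaa. In TUT47MO the summed late reads of mespaa, 30, were below its 86 early reads, a ratio of CPM of 0.589 (95% interval 0.375 to 0.902), where ConMO had a ratio of 22 (17.2 to 28.5).

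her5 was the member that was higher in late TUT47MO embryos. It stood at 117, 128 and 132 CPM in TUT47MO against 19.1, 12 and 37.8 CPM in ConMO in rs1a, rs1b and rs2, so the late group means were 126 ± 7.71 CPM and 23.0 ± 13.4 CPM (SD, n = 3). The TUT47MO libraries lay close together and all above the ConMO ones, which were further apart. The highest ConMO level was that of rs2, the only set with a 5 hpf library, so hour and set cannot be told apart there. The ratio of TUT47MO to ConMO was 6.15 in rs1a (95% interval 5.45 to 6.96, counting error only), 10.7 in rs1b (8.99 to 12.8) and 3.50 in rs2 (3.24 to 3.79), and the mean log2 difference was 2.55 ± 0.77 (SD, n = 3). At 4 hpf in rs1a, the order was the reverse: her5 was 84.4 CPM with the control and 59.6 CPM with TUT47MO. Late over early, summed her5 CPM had a ratio of 245 in TUT47MO (183 to 336) and 18.5 in ConMO (15.3 to 22.4). From 4 to 6 hpf in rs1a, her5 ran from 84.4 to 19.1 CPM in ConMO and from 59.6 to 117 CPM in TUT47MO.

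her3 and mespba differed unevenly among the late pairs, and mespbb was lower in TUT47MO in each of them. her3 stood at 9.81 against 10.3 CPM in rs1a and 8.41 against 10 CPM in rs1b for TUT47MO and ConMO at 6 hpf, and at 1.20 against 7.50 CPM at 5 hpf in rs2. The 6 hpf ratios of TUT47MO to ConMO were 0.954 (95% interval 0.752 to 1.21, counting error only) and 0.837 (0.654 to 1.08), and the 5 hpf ratio was 0.161 (0.10 to 0.248), so the mean log2 difference of −0.75 ± 1.04 (SD, n = 3) rested on the rs2 pair. mespbb stood at 1.02, 1.07 and 0.552 CPM in TUT47MO against 2.01, 2.99 and 1.24 CPM, with ranges that did not overlap. Its ratios of TUT47MO to ConMO were 0.508 (95% interval 0.246 to 0.987, counting error only), 0.358 (0.195 to 0.639) and 0.445 (0.199 to 0.926), and the mean log2 difference was −0.68 ± 0.23 (SD, n = 3). mespba stood at 0.784, 1.18 and 0.803 CPM against 1.18, 1.85 and 0.276 CPM, with no common direction and a mean difference of −0.06 ± 0.49 (SD, n = 3) that turned to 0.22 under the deposited scaling, to 0.10 without rs1b and to 0.06 without rs1a.

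Of the 8 genes, 6 were lower in TUT47MO in all 3 late pairs, where 32.7% of the 18075 genes tested were. The members were picked on this contrast, so nothing is read from that count. The median of the 8 mean log2 differences was −2.04, beside 0.09 for all genes tested. Markers of other cell types and of the maternal store moved in the same libraries. Of 14 markers in the table, 9 had a late TUT47MO range below the ConMO range and 4 a range above it (mxtx2, nanos3, btg4 and zar1l), and none of the 14 stood at 0 in all late libraries of either group. The summed level of the mesoderm markers ta and tbx16 was 165 to 436 CPM in late TUT47MO and 1000 to 2170 CPM in late ConMO, and that of the endoderm markers sox32 and sox17 was 22 to 23.5 CPM against 74.9 to 151 CPM. The enveloping layer markers krt4 and krt18 summed to 553 to 714 CPM against 2230 to 4310 CPM, and the ectoderm markers sox3 and sox2 to 138 to 149 CPM against 450 to 593 CPM. The yolk syncytial layer markers summed to 196 to 259 CPM against 270 to 287 CPM, but went opposite ways. mxtx2 stood at 164 to 233 CPM against 46.5 to 145 CPM, and hnf4a at 25.9 to 31.2 CPM against 125 to 224 CPM. The germ plasm markers summed to 116 to 224 CPM against 193 to 214 CPM. Of these, nanos3 was higher (29.3 to 39.3 against 8.98 to 19.0 CPM) and the ranges of ddx4 overlapped (76.7 to 193 and 184 to 201 CPM). The maternal genes btg4 and zar1l summed to 196 to 290 CPM against 28.3 to 72.4 CPM. The part of these shifts in the levels of the 8 genes was not tested.

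**Figure D2:**
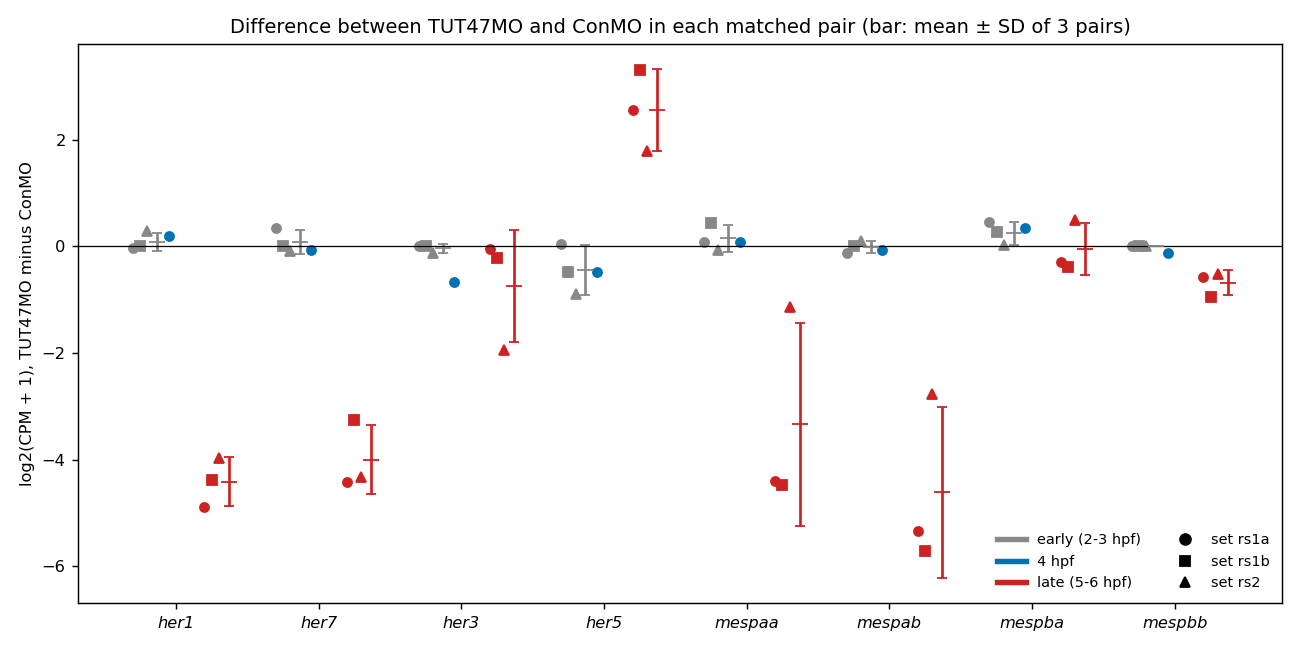
Difference in log2(CPM + 1) between TUT47MO and ConMO for each gene in each matched pair; grey points are the 3 early pairs, blue the 4 hpf pair of rs1a and red the 3 late pairs, with marker shapes for sets and bars for the mean ± SD of 3 pairs. The early pairs lie between −0.90 and 0.45, and the late pairs lie between −3.26 and −4.89 for her1 and her7 and above 0 for her5.

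At 4 hpf, just before the clock genes were on, only her5 and her3 stood above about 2 CPM in any of the 4 rs1a libraries. her5 was at 84.4 CPM in ConMO, 76.6 CPM in TUT4MO, 45.5 CPM in TUT7MO and 59.6 CPM in TUT47MO. The ConMO and TUT4MO libraries thus held more her5 than the 2 libraries with a TUT7 morpholino. The share of mitochondrial rRNA followed the same split, at 14.4 and 13.5% in ConMO and TUT4MO and 44.7 and 44.6% in TUT7MO and TUT47MO, and its part in the her5 levels was not tested. her3 did not follow that split: it stood at 6.66 CPM in ConMO, 2.35 CPM in TUT4MO, 9.04 CPM in TUT7MO and 3.77 CPM in TUT47MO. her11, the neighbour of her5, stood at 14.8, 16.7, 13.7 and 15.4 CPM in the same 4 libraries. The 6 other members lay between 0 and 1.97 CPM at 4 hpf.

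At 6 hpf in rs1a the 4 morpholinos gave 1 order for 4 of the genes. her1 stood at 61.0 CPM in ConMO, 32.0 CPM in TUT4MO, 1.29 CPM in TUT7MO and 1.10 CPM in TUT47MO. The last 2 were close, with a ratio of TUT47MO to TUT7MO of 0.849 (95% interval 0.384 to 1.86, counting error only). her7 stood at 69.6, 65.7, 10.2 and 2.27 CPM in the same order of libraries, with a ratio of TUT4MO to ConMO of 0.945 (0.860 to 1.04) and of TUT47MO to TUT7MO of 0.223 (0.144 to 0.336). mespab stood at 61.9, 15.8, 1.62 and 0.549 CPM and mespaa at 25.1, 4.33, 0.486 and 0.235 CPM. The ratio of TUT47MO to TUT7MO was 0.339 (0.121 to 0.836) for mespab and 0.485 (0.0785 to 2.27) for mespaa, the latter from few reads. her5 had the reverse order, with 19.1 CPM in ConMO, 36.7 CPM in TUT4MO, 90.6 CPM in TUT7MO and 117 CPM in TUT47MO. These are single libraries of genes partly chosen for low levels in the knockdown, so the levels and intervals describe the libraries and test no effect of a morpholino.

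her3 and mespbb did not follow that order. her3 stood at 0.369 CPM in TUT4MO at 6 hpf, from 4 reads, against 10.3 CPM in ConMO, 9.81 CPM in TUT47MO and 20.6 CPM in TUT7MO. The TUT4MO library thus held less her3 than TUT47MO, whose embryos also received the TUT4 morpholino, and TUT7MO held 2.01 times the ConMO level (95% interval 1.65 to 2.45, counting error only). mespbb stood at 2.01 CPM in ConMO, 2.49 CPM in TUT4MO, 0.647 CPM in TUT7MO and 1.02 CPM in TUT47MO. The ratio of TUT4MO to ConMO was 1.24 (0.718 to 2.11). mespba lay between 0.566 and 1.18 CPM in all 4 libraries, with counting intervals that overlapped.

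**Figure D3:**
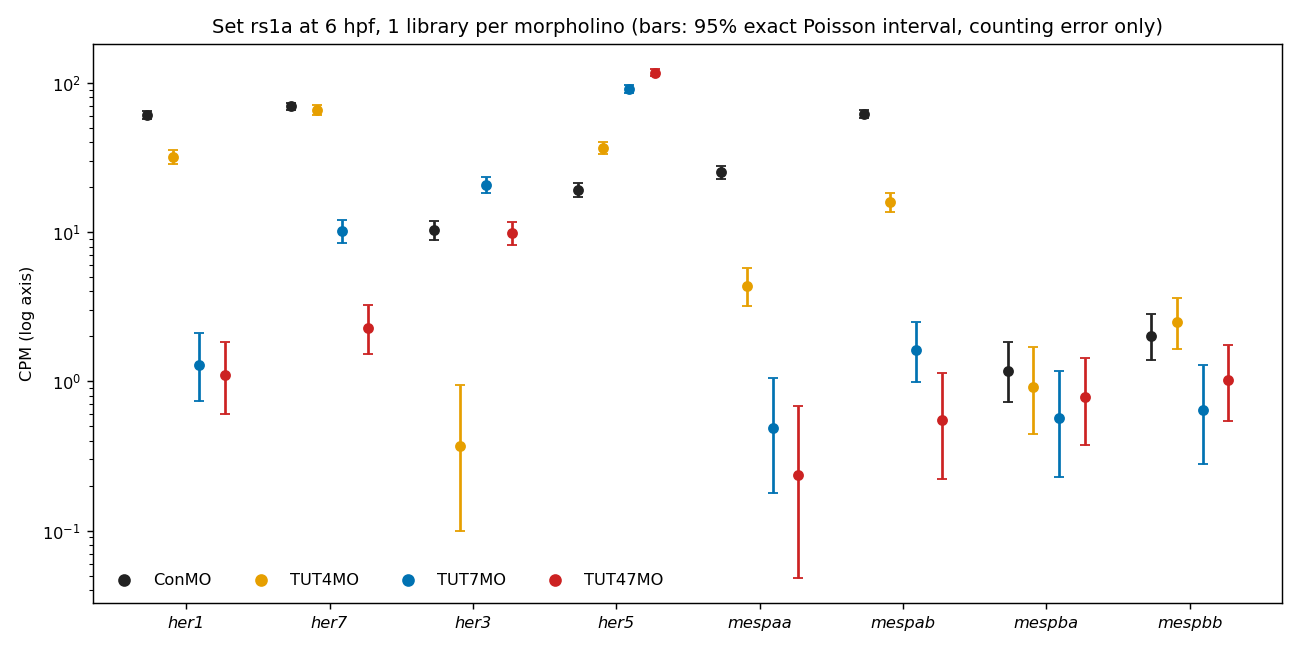
Level of each gene at 6 hpf in the 4 rs1a libraries, in CPM on a log axis; points are single libraries and bars are 95% exact Poisson intervals, which cover counting error only. her1, her7, mespaa and mespab step down from ConMO through TUT4MO and TUT7MO to TUT47MO, her5 steps up, and her3 is at 0.369 CPM in TUT4MO.

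The TUT4MO library at 6 hpf and the ConMO library at 5 hpf of rs2 can be set side by side, though they differ in set and hour. her1 stood at 32.0 and 26.4 CPM, mespab at 15.8 and 16.6 CPM, mespaa at 4.33 and 3.31 CPM and her5 at 36.7 and 37.8 CPM in TUT4MO at 6 hpf and ConMO at 5 hpf. her7 (65.7 and 52.5 CPM) and mespbb (2.49 and 1.24 CPM) were higher in TUT4MO, and her3 (0.369 and 7.50 CPM) was lower. mespba was higher in TUT4MO too (0.921 and 0.276 CPM), from 10 and 6 reads. The spread between the ConMO libraries of 1 hour was itself wide, since her1 was 61.0 and 34.6 CPM at 6 hpf in rs1a and rs1b. TUT47MO at 6 hpf and ConMO at 4 hpf, both of rs1a, can be set side by side in the same way. They held 1.10 and 0.564 CPM of her1, with a ratio of 1.95 (95% interval 0.804 to 4.90, counting error only), and 2.27 and 1.07 CPM of her7 (2.12, 1.15 to 4.01). her5 stood at 117 and 84.4 CPM (1.39, 1.29 to 1.49) and her3 at 9.81 and 6.66 CPM (1.47, 1.14 to 1.91). mespab (0.549 and 0.0562 CPM; 9.74, 1.25 to 439) and mespbb (1.02 and 0.226 CPM; 4.52, 1.40 to 19.0) were higher in TUT47MO at 6 hpf, from few reads. mespaa (0.235 and 0.621 CPM; 0.379, 0.068 to 1.44) and mespba (0.784 and 0.959 CPM; 0.818, 0.335 to 1.89) were lower there, with intervals that include 1.

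TUT7MO was compared with TUT4MO in a fit over all rs1a libraries. The difference itself used no control library, and averaged over 2, 4 and 6 hpf this comparison called 0 of the 8 genes. Its spread came from the ConMO and TUT47MO libraries too, which hold values the members were chosen by. The SEs and p-values thus do not measure the spread of the TUT4MO and TUT7MO libraries alone. her3 had the smallest p, with a log2 difference of 1.86 ± 0.62 (SE; limma adjusted p = 0.935), being higher in TUT7MO at 4 and 6 hpf and at 0 reads in either at 2 hpf, and was the 1 member with an unadjusted limma p under 0.05. her1 had −1.23 ± 1.02 (SE; limma adjusted p = 0.935), which came from 6 hpf, since it was 0.08 without that hour. At 6 hpf alone the ratio of TUT4MO to TUT7MO was 24.8 for her1 (95% interval 15.0 to 43.8, counting error only), 9.79 for mespab (6.15 to 16.4), 8.92 for mespaa (3.81 to 25.5) and 6.45 for her7 (5.33 to 7.86). her5 was higher in TUT4MO at 4 hpf (76.6 against 45.5 CPM) and lower at 6 hpf (36.7 against 90.6 CPM), so its average over hours was 0.15 ± 0.55. Over all 17051 genes this fit called 0.0%, with 343 at an unadjusted p under 0.05. edgeR called 0 and DESeq2 called 3 higher and 1 lower. The fit averages over 3 hours with 1 library of each morpholino. Among the 6 TUT4MO and TUT7MO libraries, her1, mespaa and mespab stood above 2 CPM in the 6 hpf TUT4MO library alone.

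The clock genes, although neighbours, were not in a fixed proportion. In ConMO the ratio of her1 to her7 reads was 0.877 and 0.675 at 6 hpf in rs1a and rs1b and 0.503 at 5 hpf. It was 0.487 in TUT4MO and 0.127 in TUT7MO at 6 hpf of rs1a. In TUT47MO it was 0.483, 0.157 and 0.455 in the late libraries of rs1a, rs1b and rs2, where her1 had few reads (42 summed over the 3 libraries). Over all 20 libraries the levels of her1 and her7 had a Pearson r of 0.969 on the log2(CPM + 1) scale, her1 and mespab 0.970, and mespaa and mespab 0.924. her5 correlated most with her3 among the members (0.784) and least with mespba (−0.774). These values describe 20 libraries that share morpholino, hour and set.

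Among all other genes with a proper symbol, the levels most like those of her1 over the 20 libraries were those of the T-box gene tbx6l (r = 0.986), lhx1b (0.982) and ltb4r2a (0.980). For mespaa they were nipsnap1 (0.973), gna14 (0.971) and msgn1 (0.971), the last a presomitic mesoderm regulator, and for mespab ttc22 (0.996), efnb2b (0.996) and an entry named for MSI1 (0.995). For her7 they were hif1al (0.984), dkc1 (0.981) and ptbp1b (0.978), and for mespbb an entry named for RNH1 (0.985), rbm39a (0.977) and nradd (0.977). For her5 they were irx7 (0.975), klf2a (0.970) and lratb (0.967), and for her3 sh3bp4 (0.937), cyldb (0.925) and pkd1b (0.914). For mespba the closest were lower, at 0.899 (ube2w), 0.898 (amn1) and 0.890 (knstrn). Genes that are off early and on late in controls share most of such a pattern, and r over 20 libraries does not single them out.

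The genes around the clock and the mesp genes were taken as 3 lists. The list of presomitic mesoderm regulators (T-box, Wnt, FGF and ripply genes and their like) had 35 entries tested in the late contrast, with wnt8a on 3 of them, of which 29 fell in TUT47MO and 1 rose, with a median log2 difference of −1.54 beside 0.09 for all genes. Over all 18075 genes the share called lower was 29.4% and that called higher 34.7%, and with median-of-ratios and deposited scaling the higher share of the calls was 45.5% and 67.7% where it was 54.1% with TMM. Deposited scaling moved the median of all genes to 0.315. None of the 35 entries reached the filter's level in late ConMO alone. Some reached it mainly there, though, and could hardly be called higher in TUT47MO. An example is tb, with means of 16.5 CPM in late ConMO, 0.183 CPM in early ConMO and 0.103 CPM in late TUT47MO. The late counts and median of this list are thus a description. For all 3 lists the fit took its spread from early and late pairs jointly. Genes near 0 early, such as ta (0.146 CPM in early ConMO), could hardly differ there. The late SEs and p-values thus do not measure the late spread alone. The late libraries fitted alone called 25 of 35 presomitic entries lower and 0 higher, beside 4184 and 4734 of all 16877 genes. In ConMO, 28 of 33 entries of this list rose from early to late and 1 fell, beside 36.3% and 37.2% over all genes. The 1 that fell was an entry of wnt8a, by 0.98 (log2), while the other wnt8a entries rose. The ConMO median of the list was 3.70 beside −0.05 for all genes. Of the 33, 13 reached the filter's level in at most 1 early library and so needed late libraries to pass, and all 13 are among the 28. The Brachyury gene ta, needed for the posterior body, stood at 632 ± 186 CPM in the late controls and 103 ± 22 CPM in their TUT47MO partners (SD, n = 3) and fell by 2.59 ± 0.12 (log2, SE; limma adjusted p = 1.59e-05). cdx4, a posterior homeobox gene, stood at 78.3 ± 53.4 and 6.20 ± 5.00 CPM and fell by 3.59 ± 0.18. ripply1, a Groucho-binding co-repressor that acts at forming segment boundaries, stood at 22.8 ± 16.9 and 5.33 ± 4.63 CPM and fell by 1.93 ± 0.13, and tcf3b stood at 281 ± 38.9 and 86.4 ± 12 CPM and fell by 1.69 ± 0.10. The call for ta was lost when the 4 hpf pair was counted as late, at −1.62.

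Of the Notch signalling list, 36 genes were tested in the late contrast, of which 15 fell and 9 rose in TUT47MO, beside 29.4% lower and 34.7% higher over all genes, with a median of −0.25 that turned to 0.09 under the deposited scaling. The count of 9 higher genes was 5 without rs1a and 6 without rs1b. In ConMO 23 of 36 rose and 8 fell from early to late, beside 36.3% and 37.2% over all genes. Of the 23, 8 reached the filter's level in at most 1 early library and so needed late libraries to pass. The ConMO median of the list was 0.60, and 11 rose under the deposited scaling, which moved the median of all genes to −0.264. The receptor gene notch3 stood at 109 ± 36.5 CPM in the late controls and 18.7 ± 6.29 CPM in their TUT47MO partners (SD, n = 3) and fell by 2.47 ± 0.14 (log2, SE; limma adjusted p = 2.07e-05). mib1, the ubiquitin ligase that activates Delta ligands, stood at 137 ± 10.1 and 21.7 ± 5.78 CPM and fell by 2.63 ± 0.19. nrarpb, a feedback inhibitor of Notch, stood at 36.7 ± 23.7 and 3.10 ± 1.23 CPM and fell by 3.02 ± 0.24. The ligand gene jag2b went the other way, at 22 ± 8.25 and 66.0 ± 17.3 CPM, a rise of 1.57 ± 0.10, and its early ConMO level was 80.8 ± 9.50 CPM. The Delta genes of the clock, dlc and dld, fell by 3.24 ± 0.59 and 3.04 ± 0.25 (log2, SE). They are named here after their values were seen, so no p is given. Of the other Delta genes of the list, dla fell by 1.05 ± 0.13, dlb differed by 0.12 ± 0.39 and dll4 rose by 1.87 ± 0.41.

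The list of other Hairy, Hey and Id genes and Groucho partners held genes called in either direction. In the late contrast 10 of 22 entries rose and 6 fell in TUT47MO, beside 34.7% and 29.4% over all genes, with a median of 0.32. In ConMO 10 of 18 rose and 4 fell, beside 36.3% and 37.2% over all genes, with a median of 1.29. Of the 18, 4 reached the filter's level in at most 1 early library and so needed late ones to pass, and 3 of these are among the 10. hes6, which pairs with her1 and her7 proteins in zebrafish and which is on the presomitic list too, stood at 123 ± 24.6 CPM in the late controls and 21.3 ± 0.191 CPM in their TUT47MO partners (SD, n = 3) and fell by 2.46 ± 0.17 (log2, SE; limma adjusted p = 2.80e-05). her8a stood at 40.2 ± 13.5 and 8.67 ± 3.56 CPM and fell by 2.1 ± 0.15. hey2, a Hairy-related gene of the blood vessels, stood at 0.838 ± 0.597 and 4.17 ± 2.19 CPM and rose by 1.44 ± 0.15, and id2a, which lacks a DNA-binding part, stood at 26.4 ± 9.65 and 45.8 ± 15 CPM and rose by 0.78 ± 0.09. her11, described for its place beside her5, rose by 1.24 ± 0.19 (limma adjusted p = 0.000763), with means of 10.4 CPM for the late controls and 24.2 CPM for TUT47MO, the same direction as her5. The count of 6 lower genes was 3 without rs1a, 3 without rs1b, 3 when the late libraries were fitted on their own and 2 under the deposited scaling. The count of 10 higher genes was 4, 6 and 5 in those first 3 fits and 2 without the pair block, and the call for id2a was lost without the pair block. In the early pairs 0 genes of the 3 lists were called by limma, beside 0 of all 18075 genes tested, so nothing is read from that count. The lists were chosen with earlier results of these data known, and ta and tbx16 of the presomitic list are also the mesoderm markers above.

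**Figure D4:**
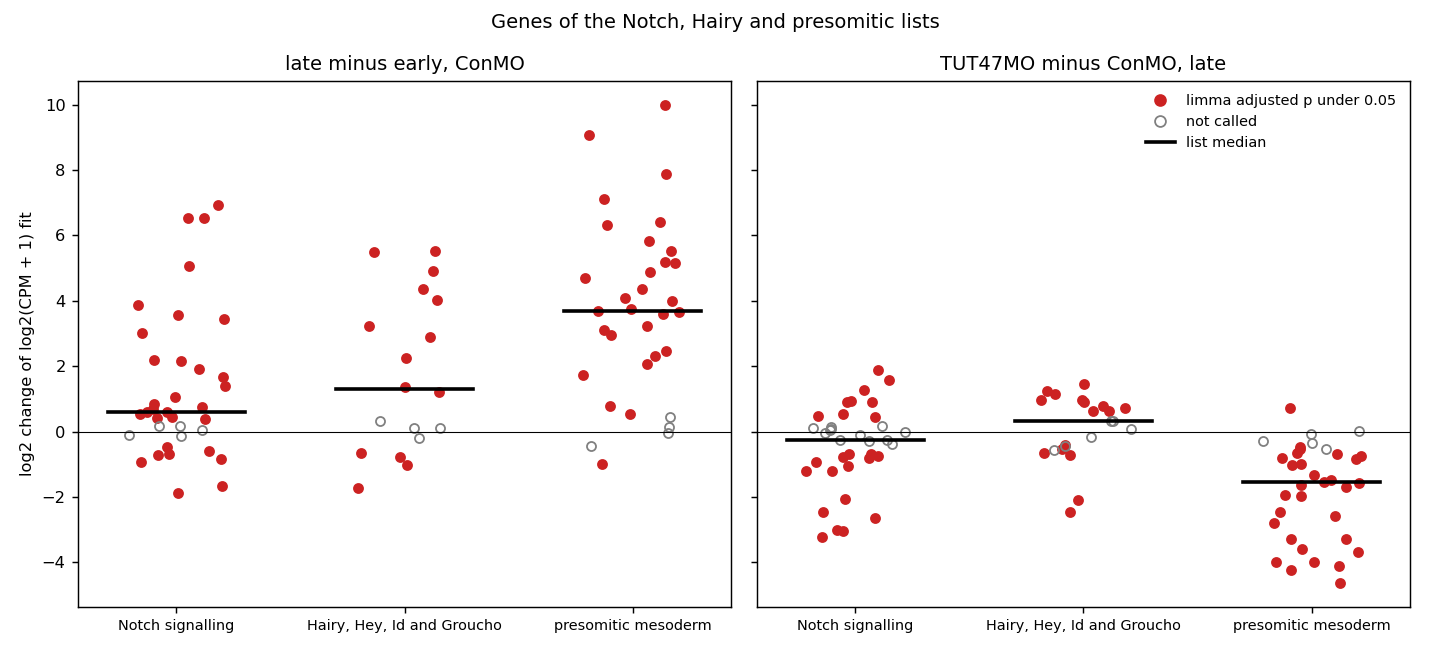
Log2 change of each tested gene of the Notch, Hairy and presomitic lists, left from early to late ConMO and right between TUT47MO and ConMO in the late pairs; filled red points had a limma adjusted p under 0.05, open points did not, and black bars are list medians. The presomitic list has its median at 3.70 on the left and −1.54 on the right, while the Hairy list has medians of 1.29 and 0.32.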

How the data were processed

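Total RNA with ERCC spike-in was depleted of rRNA and sequenced as stranded paired-end libraries, per the labels' protocols; reads were processed with STAR 2.5.3a and RSEM on GRCz10, per the submitters' processing notes. The deposited values are estimated counts in rs1b. Those of rs1a and rs2, also deposited by the authors, form a signal: each library's estimated counts carry 1 multiplier, between 0.75 and 1.2736 in rs1a and between 0.3815 and 2.0325 in rs2, that no source used here explains. It was read from the steps between low values and divided out, after which 84.1 to 90.8% of those of at most 20 reads were whole within 0.02. Of 32660 entries, 555 (1.7%) without a name or values were left out. ERCC values were not used here, so no change is an absolute amount per embryo.

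Reads were scaled to CPM by TMM over all 20 libraries (edgeR 4.0.16), kept by filterByExpr (minimum count 10) and tested with limma 3.58.1 in R 4.3.3 on log2(CPM + 1) (intensity trend in the variance), with p adjusted by Benjamini-Hochberg and calls at 0.05. TUT7MO was compared with TUT4MO in a fit of all rs1a libraries, with hour and morpholino as terms. ConMO phases were compared with set as a block, and TUT47MO with ConMO with the pair of set and phase as a block and 1 effect per phase. The spread was estimated jointly for the early and the late pairs. Ratios of single libraries carry 95% exact intervals from reads (scipy 1.17.1), which cover counting error only. The pairing follows the series text, in which the sets are independent; deviations from group means correlated by 0.447 to 0.927 within the 6 pairs, though these means mix hours. No libraries of a group were alike within sampling noise (chi-square divided by its degrees of freedom, 95.9 to 718).

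The 8 genes and the 3 lists were chosen with earlier results of these data known. Of 38, 33 and 42 list symbols, 37, 32 and 41 were matched by symbol or gene ID. Named genes were all 8 members, from every list the 4 lowest late p among genes called with 1 sign in the 3 late pairs, and the 3 genes most like each member by Pearson r, clone names left out. Alternatives were median-of-ratios and deposited scaling, TMM over each comparison's libraries (chosen after seeing the data), other filters, pseudocounts of 0.1 and 5, edgeR and DESeq2 1.42.0 on rounded reads, no block, each set or hour left out, and 4 hpf counted as late. Scripts were tested on simulated data. Sequences and coordinates were not used here.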

Additional observations from a re-analysis of the deposited data

Results flagged for a closer look

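For the 12 list genes named in the text, the difference between TUT47MO and ConMO was not alike in the late and the early pairs, as limma's contrast of late minus early over 3 pairs in each phase picked out. The late minus early log2 difference was −2.43 for notch3, −2.57 for mib1, −3.05 for nrarpb and 1.55 for jag2b of the Notch list. It was −2.69 for hes6, −2.21 for her8a, 1.25 for hey2 and 0.73 for id2a of the Hairy list, and −2.75 for ta, −3.73 for cdx4, −1.71 for tcf3b and −2.07 for ripply1 of the presomitic list. These genes were named for their late difference, which enters this one, so the values are a description and no p is given. In early ConMO, ta (0.146 CPM), cdx4 (0.126 CPM), notch3 (0.138 CPM), ripply1 (0.205 CPM) and her8a (0.357 CPM) were nearly absent and could hardly be lower in early TUT47MO. The 8 Hairy and Mesp members were not tested in this way.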

How the results depend on the processing

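Of the 10 counts and medians that summarise the comparisons, 129 values under alternatives stayed within 1.5 times of the reported ones or within 1 SD, and 11 did not. The 129 include counts of 0 members called, from fits that called almost no gene, which had little room to move. They also include the count of 7 members higher in ConMO, some of which had to differ. With 4 hpf counted as late in ConMO, 1 of 8 members, 1 Notch gene, 0 Hairy list genes and 1 presomitic gene were called higher, in a fit that called 80 genes higher and 0 lower where 6172 and 6327 were called otherwise. The deposited scaling gave 11 Notch genes higher in ConMO and 2 Hairy list genes lower in late TUT47MO, and 2596 higher and 2046 lower genes in ConMO. The late libraries alone gave 3 Hairy list genes lower, and leaving out 1 set each gave 3 to 8. The median late difference of the members was −2.77 with a pseudocount of 0.1 and −1.16 with one of 5, as the scale itself sets. her1 in TUT7MO against TUT4MO was −2.05 with edgeR, and with 1 hour left out it ran from −1.89 without 4 hpf to 0.08 without 6 hpf. Without the set block, 7 members were called higher in ConMO. Without the pair block, 10 Notch and 23 presomitic genes were called lower in late TUT47MO, where 4098 genes were higher and 3907 lower against 6267 and 5311 with it. The late calls of all genes were 6632 higher and 3165 lower with the deposited scaling. Of values for single genes, 447 kept their side of the threshold or moved by less than 1 SD (uncalled values such as mespba included, whatever their sign), 24 moved further, 8 lost a call and 1, the her1 value above, reversed. The cause was not tested. Genes under about 1 CPM rest on few reads, which limits mespba, mespbb and every early level; 3 reads correspond to 0.0697 to 0.276 CPM in the libraries of the 8 genes. Groups of 3 libraries are too small for a check on single outlying libraries.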
